A study of Papio anubis with 12 samples.

Results

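The fatty acid desaturases, enzymes that place double bonds in acyl chains, were read in the precentral gyrus (motor cortex) of neonatal baboons by 12 of the 54613 probe sets tested. These 12 are the probe sets whose platform annotation gives exactly 1 symbol and whose symbol is FADS1, FADS2, FADS3, SCD or SCD5. They cover 4 of the 5 genes: FADS2 and FADS3 with 2 probe sets each, and SCD and SCD5 with 4 each. FADS1 has no value here, because each of its 3 probe sets also carries the symbol of the microRNA gene MIR1908.

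Precentral gyrus RNA of 12 baboons (Papio anubis) was hybridised to human arrays, 1 array per animal. The animals were randomised to 3 formulas of 4 animals each, and all were formula-fed for 12 weeks, so no group without formula is among the arrays. Formula C lacked both docosahexaenoic acid (DHA, 0%) and arachidonic acid (ARA, 0%). L and L3 had the same ARA content (0.67%) but different DHA contents, 0.33% in L and 1.00% in L3. The C group was 2 males and 2 females aged 83 to 85 days, the L group 1 male and 3 females aged 84 to 87 days, and the L3 group 0 males and 4 females aged 83 to 84 days, so sex is partly confounded with formula. The comparisons are L against C (L/C), L3 against C (L3/C) and L3 against L (L3/L). L/C and L3/C share the 4 C arrays, so their values are not independent.

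DHA and ARA can be eaten preformed or made from alpha-linolenic and linoleic acid by alternating desaturation and elongation. FADS2 performs the first desaturation of that route and FADS1 a later one, FADS3 acts on the sphingoid base of ceramides, and SCD and SCD5 convert saturated acyl chains to oleate and palmitoleate, which enter membrane lipids and myelin. In liver, dietary polyunsaturated fatty acids are known to lower desaturase transcription through the sterol regulatory element binding protein SREBF1. In the RefSeq annotation of the baboon assembly Panubis1.0, FADS1, FADS2 and FADS3 lie together on chromosome 12, with 3 annotated genes between FADS1 and FADS2 and 0 between FADS2 and FADS3, whereas SCD lies on chromosome 11 and SCD5 on chromosome 3.

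No desaturase probe set passed the test in any comparison. With limma and Benjamini-Hochberg adjustment over all probe sets, 0 of the 12 had an adjusted p under 0.05, and 0 reached an unadjusted p under 0.05, whichever formulas were compared. The share of all 54613 probe sets at an adjusted p under 0.05 was 0% in each comparison. At an unadjusted p under 0.05 it was 2.42% in L/C, 4.26% in L3/C and 5.40% in L3/L, so a count of 0 among 12 lies near the background. In the 3-group test of any difference, 3.67% of all probe sets and 0 of the 12 had an unadjusted p under 0.05, and the smallest among the 12 was 0.175 (limma). No desaturase probe set separated the groups without overlap either, against 2.10%, 2.21% and 2.66% of all probe sets in L/C, L3/C and L3/L. These values are from whole tissue, in which fewer cells of a type and less RNA per cell cannot be told apart.

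Values below are either signals, the deposited MAS5 values scaled to an equal trimmed mean on every array, or differences of log2(signal + 16) after quantile normalization. The level of a probe set also depends on its own probes, which were designed on human sequence. Brightness is therefore given as a description and not as a comparison of transcript amounts. Of the 12 probe sets, 6 lay above the median mean log2 value of all probe sets (7.14) and 6 below it. The 6 above it were both FADS3 probe sets, SCD 200832_s_at and 200831_s_at, and SCD5 224901_at and 220232_at. Brightness was not a measure of precision. The SE of a log2 difference ran from 0.18 (SCD5 224901_at) to 0.80 (FADS3 216080_s_at) above that median. Below it, the SE ran from 0.39 (SCD 211708_s_at) to 0.75 (SCD5 224018_s_at).

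FADS2 202218_s_at, a probe set below that median, had the largest L3/L difference in size among the 12. Its signals were 44.9, 252.8, 108.9 and 94.3 in C, 266.8, 119.5, 106.2 and 272.4 in L, and 82.2, 24.4, 41.2 and 236.6 in L3. Every L value lay above all but 1 of the L3 values, yet the L3 animal with the highest signal stood within the upper part of the L range, and all groups overlapped. Mean signals for C, L and L3 were 125 ± 89.4, 191 ± 90.7 and 96.1 ± 96.8 (SD, n = 4 each). The L3/L difference was -1.23 on the log2 scale (SE 0.63, 95% interval -2.56 to 0.10; limma adjusted p = 0.891; two-sided exact permutation p = 0.143). The L/C difference was 0.65 (exact permutation p = 0.2) and the L3/C difference was -0.58 (exact permutation p = 0.457), both with the same SE. With females only, L/C was 0.14, L3/C was -1.18 and L3/L was -1.32. Without the fourth L3 animal the L3/L difference became -1.78 (unadjusted p = 0.00893, adjusted p = 0.383, limma), and within the 6 arrays of lower spike-in signal described below, where that animal is the only L3 array, it was 0.53.

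The other FADS2 probe set, 243953_at, did not follow the first. Its signals were 136.3, 27.5, 84.1 and 52.1 in C, 33.0, 89.9, 30.5 and 89.8 in L, and 140.1, 20.6, 139.3 and 17.3 in L3. In signals the L3 group held both the highest and the lowest value, while after normalization the highest was in C. Its differences were -0.16 in L/C, -0.28 in L3/C and -0.12 in L3/L (SE 0.64), and over the 12 arrays the log2 values of the 2 FADS2 probe sets had a Pearson's r of -0.22, given as a description.

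FADS3 204257_at, which lay above the median, gave signals of 799.9, 717.6, 980.6 and 696.7 in C, 531.3, 900.5, 747.5 and 548.7 in L, and 772.3, 1035.8, 536.3 and 750.6 in L3. In L, 2 of 4 animals were below every C animal and the L3 animals spanned nearly the whole range of all 12. Mean signals were 799 ± 129 for C, 682 ± 176 for L and 774 ± 205 for L3. The L/C difference was -0.29 (SE 0.27, 95% interval -0.85 to 0.28; exact permutation p = 0.2), and L3/C was 0.0035 (95% interval -0.56 to 0.57). Its SE was below the median SE of all probe sets, 0.51, as were those of 3 others of the 12.

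FADS3 216080_s_at spread far more widely, with an SE of 0.80, the largest of the 12. Its signals were 217.4, 208.3, 618.5 and 540.3 in C, 44.5, 463.1, 737.4 and 689.8 in L, and 58.1, 176.2, 293.1 and 723.4 in L3. Each formula held both low and high animals. The differences were -0.06 in L/C, -0.69 in L3/C and -0.62 in L3/L. The first L animal set the L/C value, which was 0.84 without it. The 2 FADS3 probe sets had a Pearson's r of -0.05 over the 12 arrays.

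**Figure D1:**
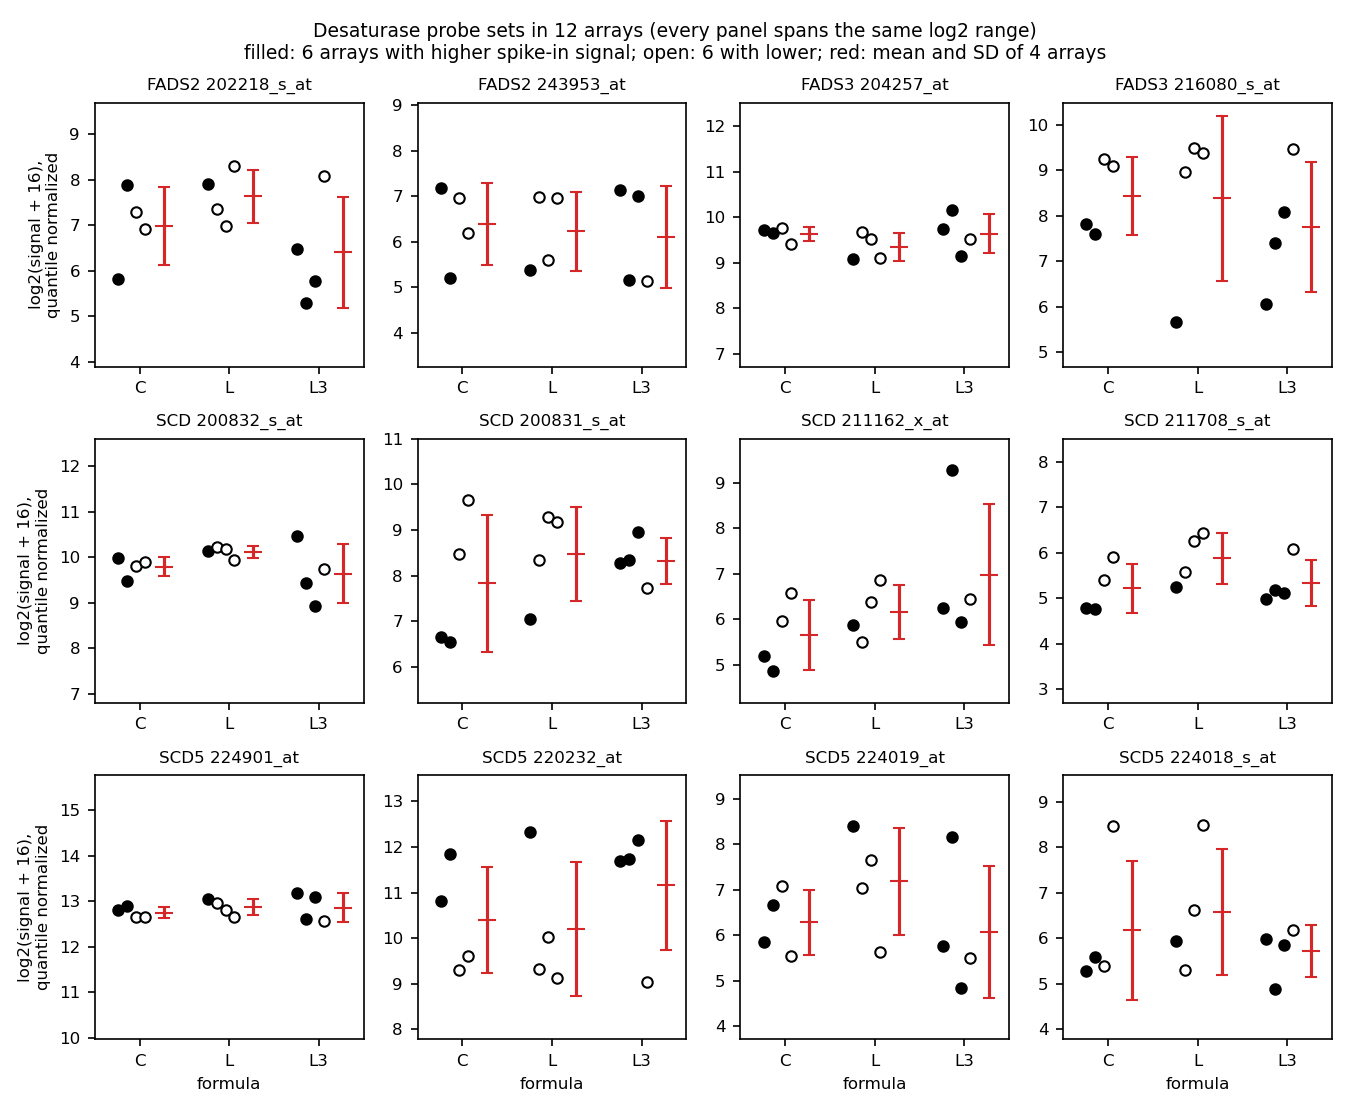
Log2(signal + 16) after quantile normalization (vertical axis, a log2 scale whose span is equal in every panel) of the 12 desaturase probe sets, with 1 panel per probe set, 1 point per animal (filled for the 6 arrays of higher spike-in signal, open for the other 6) and the mean ± SD of the 4 animals of formulas C, L and L3 in red. The groups overlap in every panel. SCD5 224901_at has the narrowest spread and FADS3 216080_s_at and SCD5 220232_at are among the widest.

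SCD, the stearoyl-CoA desaturase of most tissues, had 200832_s_at as its brightest probe set. Its signals were 950.5, 650.2, 1027.6 and 1022.4 in C, 874.4, 1445.3, 1223.2 and 1097.0 in L, and 1229.0, 635.2, 478.3 and 887.2 in L3. In signals, 3 of 4 L animals were above every C animal, and after normalization again 3 of 4 but not the same 3, while the L3 animals lay on both sides of the C range. Mean signals were 913 ± 178 for C, 1160 ± 239 for L and 807 ± 328 for L3. The L/C difference was 0.33 (SE 0.29, 95% interval -0.28 to 0.94; adjusted p = 1.00, limma), with a two-sided exact permutation p of 0.0571, the smallest of the 12 in L/C, where 4 against 4 animals can reach 0.0286. The L3/C difference was -0.15 (95% interval -0.76 to 0.46), and L3/L was -0.48 (95% interval -1.09 to 0.13; exact permutation p = 0.229). Both the L/C and the L3/L difference kept their signs in every alternative run.

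SCD 200831_s_at gave signals of 91.0, 91.7, 294.8 and 857.7 in C, 141.1, 270.1, 631.7 and 583.6 in L, and 316.0, 329.9, 483.9 and 180.5 in L3. The C group held both the lowest and the highest value of the 12 animals. Differences were 0.64 in L/C, 0.49 in L3/C and -0.15 in L3/L (SE 0.65). Its log2 values had a Pearson's r of 0.00 with those of 200832_s_at.

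Both remaining SCD probe sets were low. SCD 211162_x_at gave 22.4, 18.0, 36.2 and 72.5 in C, 53.2, 23.7, 65.9 and 83.7 in L, and 68.5, 575.3, 48.1 and 67.3 in L3, so that a single L3 animal stood above all others. Its L3/C difference of 1.33 (SE 0.68, 95% interval -0.11 to 2.76; exact permutation p = 0.2) was the largest of the 12 in L3/C and fell to 0.56 without that animal. SCD 211708_s_at, with signals from 12.7 to 59.5, differed by 0.66 in L/C (SE 0.39, exact permutation p = 0.143), 0.12 in L3/C and -0.54 in L3/L. All 4 SCD probe sets were positive in L/C, with overlap between the groups in each.

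SCD5, a second stearoyl-CoA desaturase of primates that is expressed in brain, included 224901_at, whose SE after quantile normalization was the smallest of the 12. The signals of 224901_at were 6640.5, 5532.2, 9881.3 and 7715.5 in C, 5147.6, 12050.8, 7623.8 and 8198.9 in L, and 8048.8, 5702.6, 6493.4 and 6683.8 in L3. In signals every L3 value lay within the range of the C values, while after normalization 2 L3 animals were above every C animal and 2 were below every C animal. Mean signals were 7442 ± 1854 for C, 8255 ± 2856 for L and 6732 ± 975 for L3. After quantile normalization the L/C difference was 0.12 (SE 0.18, 95% interval -0.26 to 0.49, or 0.836-fold to 1.40-fold) and the L3/C difference was 0.11 (95% interval -0.26 to 0.48, or 0.833-fold to 1.40-fold). The L3/C value turned sign with the scaling: it was -0.12 with the deposited scaling alone and -0.29 after median centring of the arrays. The latter lies outside the 95% interval above, which does not include the choice of scaling. L3/L was -0.01 (95% interval -0.38 to 0.37).

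SCD5 220232_at gave 1731.8, 2756.4, 646.7 and 816.7 in C, 3029.9, 643.8, 1077.7 and 555.4 in L, and 2771.4, 3065.9, 3331.2 and 518.5 in L3. In signals, 3 of the L3 animals were above every C animal and the other was below every C animal, while after normalization 1 was above every C animal. The L3/C difference was 0.77 (SE 0.74, 95% interval -0.80 to 2.33; exact permutation p = 0.429), and L3/L was 0.96. Without the fourth L3 animal L3/C was 1.47 (unadjusted p = 0.0427, adjusted p = 0.619, limma). The values of this probe set also separated the arrays by a technical measure, given below.

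Both low SCD5 probe sets varied widely between animals of a formula. The signals of 224019_at ran from 27.2 to 101.1 in C, from 27.6 to 366.7 in L and from 14.1 to 297.8 in L3, and its differences were 0.90 in L/C, -0.22 in L3/C and -1.12 in L3/L (SE 0.73). Those of 224018_s_at ran from 20.0 to 320.7 in C, from 19.0 to 324.7 in L and from 15.0 to 55.0 in L3, with differences of 0.41, -0.46 and -0.86 (SE 0.75). No group stood apart in either.

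Counted by sign alone, 8 of the 12 probe sets were positive and 4 negative in L/C, with a median difference of 0.37, beside a median of -0.01 and 49.1% positive over all probe sets. In L3/C, 6 were positive and 6 negative with a median of -0.07, beside 49.9% positive over all. In L3/L, 3 were positive and 9 negative with a median of -0.31, beside 50.5% positive over all. The probe sets of a gene are not independent of each other, and none of these signs comes with a call.

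**Figure D2:**
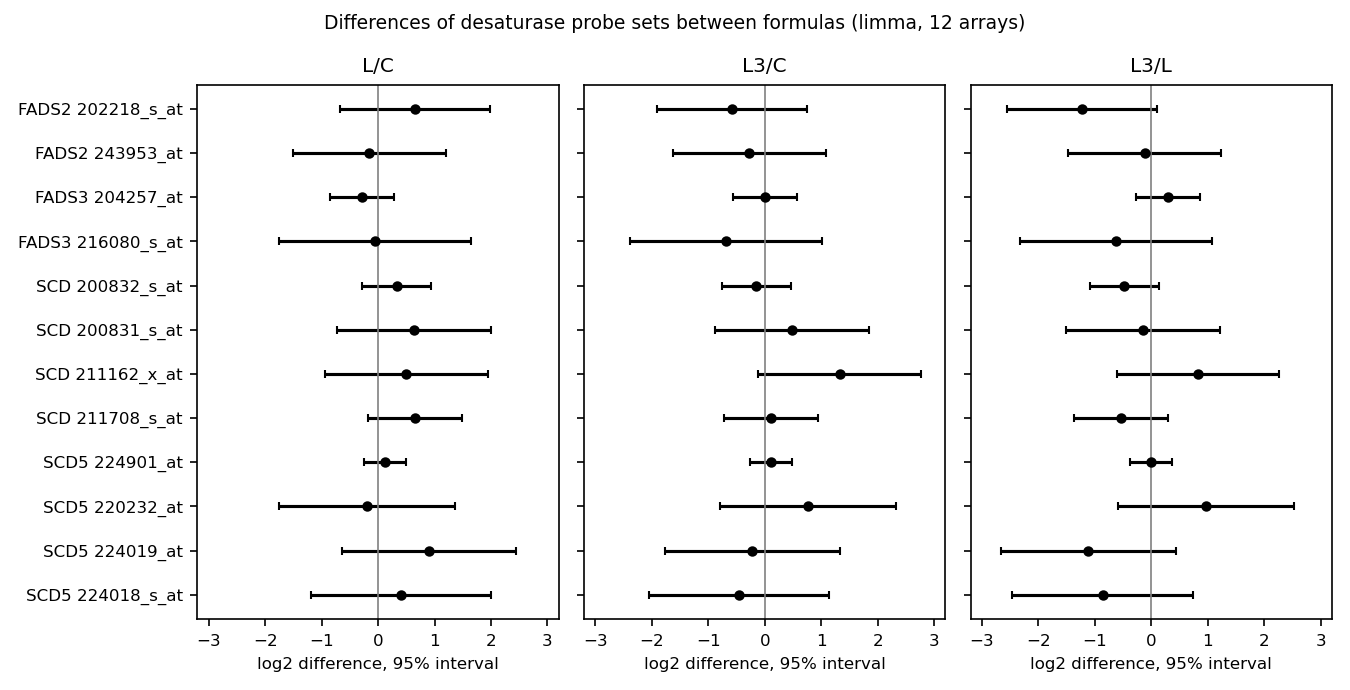
Log2 differences (horizontal axis) of the 12 desaturase probe sets in L/C, L3/C and L3/L from the limma fit of all 12 arrays, with points for the estimate and bars for the 95% interval. Every interval includes 0, and the intervals of SCD5 224901_at are the narrowest.

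Array quality moved with some of the desaturase values. The 9 spike-in control probe sets read control transcripts added to the hybridisation mix in fixed amounts. Their mean log2 value was 12.0 to 13.5 on 6 arrays (C replicates 1 and 2, L replicate 1 and L3 replicates 1, 2 and 3). On the other 6 it was 10.4 to 11.7. This split is a cut by rank of a continuous measure, chosen after seeing the data. The arrays on either side of the cut lie close, at 11.97 (C replicate 1) and 11.73 (C replicate 3). The ratio of the 3′ to the 5′ probe set of ACTB, a measure of RNA length, was 3.65 to 72.3 on the first 6 arrays and 0.904 to 3.64 on the others. In every formula it fell at each step of the replicate number, from replicate 1 (11.0 to 72.3) to replicate 4 (0.904 to 1.13). The mean spike-in value was 11.7 ± 0.65 in C, 11.4 ± 0.94 in L and 12.4 ± 1.40 in L3, with exact permutation p values of 0.686 in L/C, 0.4 in L3/C and 0.343 in L3/L.

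In 3 of the 12 desaturase probe sets these 6 and 6 arrays did not overlap in normalized log2 values, beside 4.66% of all probe sets. SCD5 220232_at was higher on the first 6 arrays (signals 1732 to 3331 against 518 to 1078, a log2 difference of 2.36). FADS3 216080_s_at was lower on them (44.5 to 293 against 463 to 737, -2.17), and so was SCD 211708_s_at (-0.92), whose deposited signals did overlap. With the 6 and 6 arrays as a block, SCD5 220232_at differed by 0.41 in L/C, 0.15 in L3/C and -0.26 in L3/L, so that L/C and L3/L turned sign. FADS3 216080_s_at then differed by -0.65 in L/C, -0.10 in L3/C and 0.55 in L3/L, so that L/C grew in size and L3/L turned sign. For SCD 200831_s_at, L3/C was 1.92 within the 6 arrays of higher spike-in signal and -1.34 within the other 6, where a single L3 animal stood against 2 C animals. The part of RNA length or labelling in these values was not tested.

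**Figure D3:**
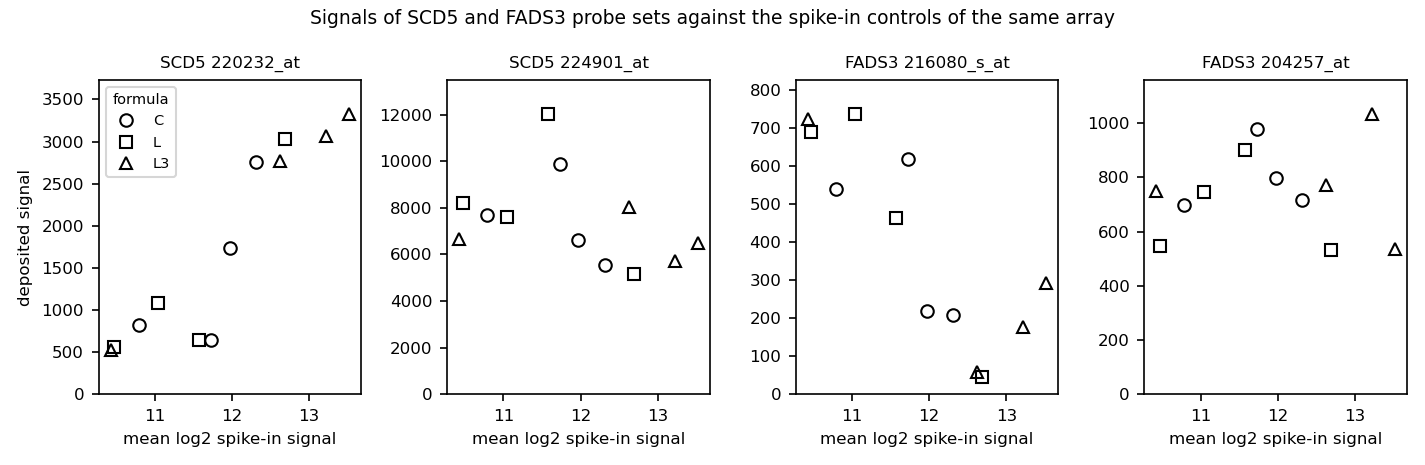
Deposited signal (vertical axis, linear from 0) of SCD5 220232_at and 224901_at and of FADS3 216080_s_at and 204257_at against the mean log2 signal of the 9 spike-in control probe sets of the same array (horizontal axis), 1 point per animal and 1 symbol per formula. SCD5 220232_at is higher and FADS3 216080_s_at lower on the 6 arrays of higher spike-in signal, and arrays of every formula lie on both sides.

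The cell types of the tissue were read from marker genes. All 7 measured neuron markers, 7 astrocyte markers and 7 oligodendrocyte markers lay above the median level of all probe sets, as did 3 of 5 microglia, 3 of 4 endothelial and 1 of 2 blood markers. No marker was at 0, and the lowest mean signal over the 12 arrays was 87.9, for C1QA of microglia. The summed signal of the oligodendrocyte markers, the cells that make myelin, was 6427 to 16962 in C, 6847 to 16863 in L and 5435 to 13825 in L3. That of the neuron markers was 72042 to 93526 in C, 58721 to 93719 in L and 62409 to 85831 in L3. Of the 7 oligodendrocyte markers, 5 were positive in L/C, 2 in L3/C and 2 in L3/L. MBP, a myelin protein gene, differed by 0.01 (L/C) and by -0.39 (L3/C). ERMN, another gene of myelinating cells, differed by 0.91 and 0.75. All 5 microglia markers were positive in L/C, with a summed signal of 1174 to 3108 in C, 1515 to 5143 in L and 1471 to 3161 in L3. C1QB, a complement gene of microglia, was the 1 marker below an unadjusted p of 0.05 for L/C, beside 2.42% of all probe sets (2.00, SE 0.60, limma unadjusted p = 0.00394, adjusted p = 1.00). Its groups did not overlap, beside 2.10% of all probe sets, and its mean signal was 51.0 in C, a low level, and 229 in L. In L3/C, 2 markers were below an unadjusted p of 0.05, beside 4.26% of all probe sets: AQP4 of astrocytes (0.63) and HBB of red blood cells (0.58). Neither had an adjusted p under 0.05 (limma). In L3/L, 4 of 5 microglia markers were negative (median -0.75) and 6 of 7 astrocyte markers were positive (median 0.34). Of the neuron markers 4 of 7 were negative, and of the endothelial markers 2 of 4. Over all probe sets 50.5% were positive in L3/L. Below an unadjusted p of 0.05 in L3/L, beside 5.40% of all probe sets, there were HBB (0.73, limma unadjusted p = 0.00873, adjusted p = 0.891) and AIF1 of microglia (-1.41, limma unadjusted p = 0.0390, adjusted p = 0.891). The HBB groups did not overlap in normalized log2 values, beside 2.66% of all probe sets, but their deposited signals did overlap. The counts of markers under an unadjusted p of 0.05 lie near the shares over all probe sets in each comparison. The part of cell composition in the desaturase values was not tested.

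The other genes of the pathway also gave no call. Of 47 genes in 6 lists, 42 had a probe set of their own, each represented by its brightest. In L/C, 21 were positive and 21 negative, with a median of -0.01, beside 49.1% positive over all probe sets. In L3/C, 12 were positive and 30 negative, with a median of -0.18, beside 49.9% positive over all. The 27306 brighter probe sets had an L3/C median of -0.04 themselves. In L3/L, 16 were positive and 26 negative, with a median of -0.08, beside 50.5% positive over all. An unadjusted p under 0.05 was reached by 0 genes in L/C, 1 (2.38%) in L3/C and 2 (4.76%) in L3/L (limma). The shares over all probe sets were 2.42%, 4.26% and 5.40%, so these counts lie near the background. No adjusted p was under 0.05 (limma, Benjamini-Hochberg). The median L3/C difference of all probe sets itself moved with the scaling, to -0.12 with the arrays centred on their medians and to 0.05 with the deposited scaling alone.

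The electron donors, which pass electrons from NADH to the desaturases, were positive for 2 of 6 for L/C but 1 of 6 for L3/C. CYB5R3, a cytochrome b5 reductase, differed by -0.46 in L/C and by -0.43 in L3/C (SE 0.36), with every L3 animal below every C animal (exact permutation p = 0.0286, the smallest possible; limma unadjusted p = 0.248, adjusted p = 0.999). It was the 1 gene of 42 (2.38%) without overlap in L3/C, beside 2.21% of all probe sets. CYB5A, a cytochrome b5, differed by -0.38 (L/C) and by -0.24 (L3/C), and CYB5B, its mitochondrial relative, by 0.23 and 0.53. Both measured ceramide and sphingolipid desaturases, DEGS1 and DEGS2, were negative in L3/C (-0.91 and -0.13). In L3/L they went opposite ways, at -1.32 and 0.85. The 2 pathway genes below an unadjusted p of 0.05 in L3/L were DEGS1 and INSIG2, a regulator of desaturase transcription (0.82). Their limma unadjusted p values were 0.0493 and 0.0499, and both adjusted p values were 0.891.

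The fatty acid elongation genes, a list not limited to those that act on the products of FADS2, were positive for 7 of 11 for L/C but 2 of 11 for L3/C. ELOVL5, which acts on polyunsaturated chains, differed by -0.02 and -0.19, and ELOVL4, which makes very long chains, by 0.31 and -1.03 (SE 0.64). Of the de novo synthesis genes, 2 of 6 were positive in each of these comparisons. ACSS2, which makes acetyl-CoA from acetate, was the 1 pathway gene below an unadjusted p of 0.05 for L3/C (-0.52, SE 0.23, limma unadjusted p = 0.0366, adjusted p = 0.999), and FASN, the fatty acid synthase, differed by -0.22. The regulators of desaturase transcription were positive for 7 of 13 for L/C but 6 of 13 for L3/C. SREBF1 differed by -0.64 (L/C) and by 0.21 (L3/C) (SE 0.57), and NR1H3, a liver X receptor, by 0.78 and 0.79 (SE 0.55). The acyl-CoA synthetases, which activate free fatty acids, were positive for 2 of 4 for L/C but 1 of 4 for L3/C.

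**Figure D4:**
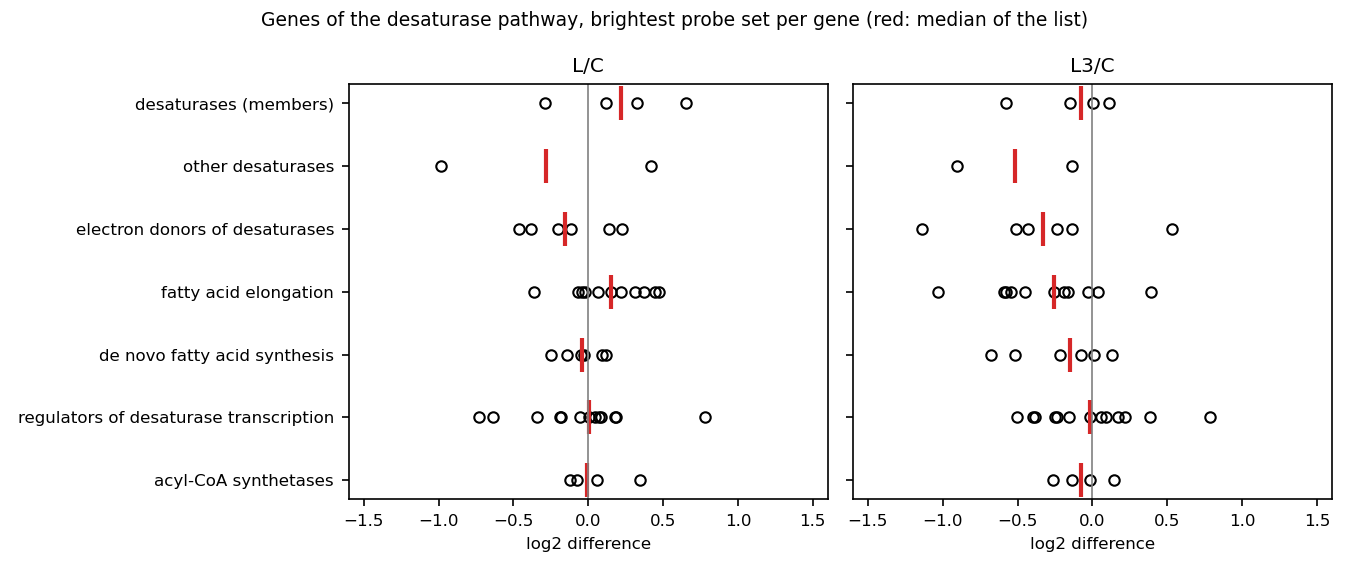
Log2 differences (horizontal axis) in L/C and L3/C of the 4 measured desaturase genes and of the genes of 6 pathway lists, 1 circle per gene by its brightest probe set, with a red bar at the median of each list. No gene has an adjusted p under 0.05.

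The probe sets whose log2 values followed those of the brightest desaturase probe sets most closely over the 12 arrays were sought among 22069 probe sets, as a description. For FADS2 202218_s_at they were those of UQCR10, POP4 and TLCD5 (Pearson's r of 0.93, 0.93 and 0.90). For FADS3 204257_at they were those of SHISA2, KIAA1549L and SLC44A1 (0.92, 0.91 and 0.90). For SCD 200832_s_at they were those of CASP10, SDF4 and LINC01138 (0.93, 0.93 and 0.91), and for SCD5 224901_at those of ODC1-DT, SEC11A and PGAP1 (0.93, 0.91 and 0.91). In a search of this size over 12 points, values this high can arise by chance, and none was tested. The 12 points also share the formulas and the differences in spike-in signal and ACTB ratio.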

How the data were processed

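The arrays were Affymetrix HG-U133 Plus 2.0, which carry human probes. The authors deposited 1 table of intensity values per probe set and array, which are MAS5 signals per the file headers and the labels, while their methods describe RMA. The 54675 values of each array have a trimmed mean (2% off each end) of 250.0, so the arrays were scaled to a common mean. Probe sets were named from the platform annotation where it gives 1 symbol (41091 probe sets); 1801 have several and 11721 none. The 62 control probe sets were left out, leaving 54613. Signals were taken to log2(signal + 16), quantile normalized and fitted in limma 3.58.1 (R 4.3.3) with 3 group means and a trended eBayes on 9 residual degrees of freedom. Benjamini-Hochberg adjustment ran over all probe sets. Single probe sets were also compared by two-sided exact permutation of 4 against 4 animals (smallest p 0.0286). Each array holds 1 animal per the labels. Precision is limited by how many arrays there are. Alternatives covered the pseudocount, the normalization, a filter on dim probe sets, no variance trend, array weights and only the 8 arrays compared. They also covered sex, age, ACTB ratio and spike-in covariates, females only, a replicate block, the methods' test and leaving out each animal. A split of the arrays by spike-in signal was chosen after seeing the data. Genes named were all members, the pathway and marker genes in the lists chosen with the brightest probe set per gene, and the closest patterns. The members and lists were chosen with earlier results of these data known.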

Additional observations from a re-analysis of the deposited data

Results flagged for a closer look

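Of 36 combinations of a desaturase probe set and a formula, 5 held 1 animal far from the other 3 in normalized log2 values, by Dixon's criterion for 4 samples; chance gives such a gap in about 1 in 20 groups. The values given are the signals of those animals. FADS3 216080_s_at was 44.5 in L replicate 1, below the other L animals. SCD 211162_x_at was 575 in L3 replicate 2, above the other L3 animals. SCD 211708_s_at was 49.2 in L3 replicate 4, above the other L3 animals. SCD5 220232_at was 518 in L3 replicate 4, below the other L3 animals. SCD5 224018_s_at was 321 in C replicate 4, above the other C animals. By the signals themselves 4 combinations passed: those of SCD 211162_x_at, SCD 211708_s_at and SCD5 224018_s_at, and SCD5 224019_at in L3, with 297.8 in replicate 2, whereas FADS3 216080_s_at and SCD5 220232_at did not. In 3 of the 5, the lone animal was also the 1 array of its formula on its side of the split by spike-in signal.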

How the results depend on the processing

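In all alternatives, 0 desaturase probe sets had an adjusted p under 0.05 in L/C, L3/C, L3/L or the test of any difference, and the smallest adjusted p of a member was 0.383 (limma). The number with an unadjusted p under 0.05, 0 as reported, was 1 in L/C with array weights, with the methods' test and within the 6 arrays of higher spike-in signal; 1 in L3/C within the 6 arrays of lower and within the 6 of higher spike-in signal; 1 in L3/L with a sex, an ACTB ratio or a spike-in covariate; and 1 in any difference within the 6 arrays of higher spike-in signal. Leaving out single animals gave 0 to 1 in L/C, 0 to 1 in L3/C, 0 to 2 in L3/L and 0 to 1 in any difference. The 2 in L3/L came without L replicate 1, beside 4149 of all 54613 probe sets, and without L3 replicate 4, beside 5435. The split by spike-in signal was chosen after seeing the data. Of 36 differences, 12 kept their sign in all alternatives run. The cause of the others' changes was not tested. With the replicate number as a block, 0 desaturase probe sets had an unadjusted p under 0.05 in each comparison. Deviations of same-numbered samples correlated at 0.14 to 0.33 for replicates 1 and 4, whose ACTB ratios were the highest and the lowest of each formula, and at -0.09 to 0.06 for replicates 2 and 3. Not every pair was over 0.1, so the numbers were not taken as pairs, although the ACTB ratio fell with the replicate number in every formula. Over all probe sets the block gave 1698 in L/C, 2836 in L3/C and 3826 in L3/L at an unadjusted p under 0.05, against 1324, 2329 and 2949 without it. Without L3 replicate 4, that number was 4314 in L3/C, 5435 in L3/L and 3722 for any difference (2006 as reported). In L3/L it was 2405, 2922 and 2028 with a sex, an ACTB ratio and a spike-in covariate. With the methods' test it was 1810 in L/C. In L/C it was 2759 with array weights, and 2024 and 3813 within the 6 arrays of lower and of higher spike-in signal; the latter also gave 4627 in L3/L and 3512 for any difference. With only the 27306 brighter probe sets tested it was 472 for L/C, 951 for L3/C, 1358 for L3/L and 794 for any difference. Of the 12 probe sets, 6 are dim, and 4 animals per formula leave intervals of a log2 unit or more on most members.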
